A study of Mus musculus with 8 samples.

Results

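Satellite cells are the stem cells of skeletal muscle, and 8 genes by which these cells and their descendants are recognised were followed in pericytes and SMCs sorted from mouse hindlimb muscle. The genes, found in the table by their symbols with no threshold on their values, were Pax7, Calcr, Chrdl2, Sdc4, Cdh15, Myf5, Myod1 and Myog, and each matched 1 of the 37979 genes in the table. The libraries came from young adult Ai14+/−;SM22α-Cre+ mice of both sexes. All 8 libraries share this genotype, in which Cre recombinase under the SM22α promoter permanently switches on the red protein tdTomato in SM22α+ cells, so that the gate follows the history of a cell as well as its present state. Pericytes were the PDGFRβ+tdTomato− cells and SMCs the PDGFRβ+tdTomato+ cells, after exclusion of cells stained for CD31 or CD45. There were 4 libraries of each, numbered 1 to 4, each pooled from multiple sorts, so a library does not stand for 1 animal, and the labels give the same batch for all 8. That label does not cover the sorts combined within a library. The paper proposes individual differences and batch effects as possible sources of the variation among replicates, which was not tested here. The labels call the libraries samples of pericytes or smooth muscle cells, and satellite cells were not a sorted population.

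In resting muscle, satellite cells lie against the fibre and carry the paired-box transcription factor Pax7. Once activated, they make the basic helix-loop-helix factors Myf5 and MyoD, divide as myoblasts, and then switch on myogenin as they leave the cell cycle and fuse. The myogenic factors bind DNA at E-boxes, short motifs with the letters CANNTG, together with E proteins, and are held back by Id proteins.

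Satellite cell and myogenic RNA was measured in both sorted populations. Of the 8 genes, 6 had at least 1 FPKM (fragment counts scaled by transcript length and by the mapped total of the library) in the library with the fewest, pericyte replicate 3, and all 8 did in 6 of the 8 libraries. Only Sdc4 differed between the groups by the test across all genes, and it was higher in SMCs. The other 7 genes overlapped between pericytes and SMCs, and the 95% intervals of their differences all included 0. In bulk RNA, fewer cells of a type and less RNA per cell cannot be told apart.

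The commonest ratio of low FPKM values between libraries put relative depth at 0.866 to 1.05 for pericytes and 0.989 to 1.07 for SMCs (geometric mean over all libraries 1), and the number of fragments behind a value is unknown. The sum of FPKM over all genes was 1190400 in pericyte replicate 2 and 656410 to 782010 in the other 7 libraries. That library held the highest pericyte values of Pax7, Chrdl2, Sdc4, Myf5 and Myog, and with all libraries rescaled to a common sum Sdc4 remained the only member called (log2 difference -1.03, limma adjusted p = 0.00153). Mural markers, such as Pdgfrb, Rgs5, Acta2 and Myh11, were present in every library. All 12 had the lower mean in pericytes (median log2 difference -1.32), and 1 of 12 was called, with 0 to 7 called in other settings, 7 of them when only genes reaching 1 FPKM in 4 libraries were tested. Markers of T cells (6 of 7 called higher in pericytes) and B cells (6 of 6) summed to 1236 to 1920 FPKM and 795 to 1979 FPKM in pericyte libraries, and to 20.3 to 48.5 FPKM and 9.60 to 30.9 FPKM in SMC libraries. Markers of fibro-adipogenic progenitors, the fibroblast-like cells of muscle, were called higher in SMCs in 8 of 9 cases, with sums of 4893 to 6308 FPKM in SMCs and 1103 to 2034 FPKM in pericytes. The remaining one, Dcn, was listed at 0 in every SMC library, which may be a failed estimate, and without it the pericyte sums were 594 to 918 FPKM. Genes of mature fibres were low, and 2 of 16 were called, both with higher values in pericytes. Of these markers, 6 stayed under 1 FPKM in all 8 libraries, among them the myosins Myh1, Myh2, Myh4 and Myh7, and the summed level was 52.1 to 72.7 FPKM in pericytes and 44.8 to 65.4 FPKM in SMCs.

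**Figure D1:**
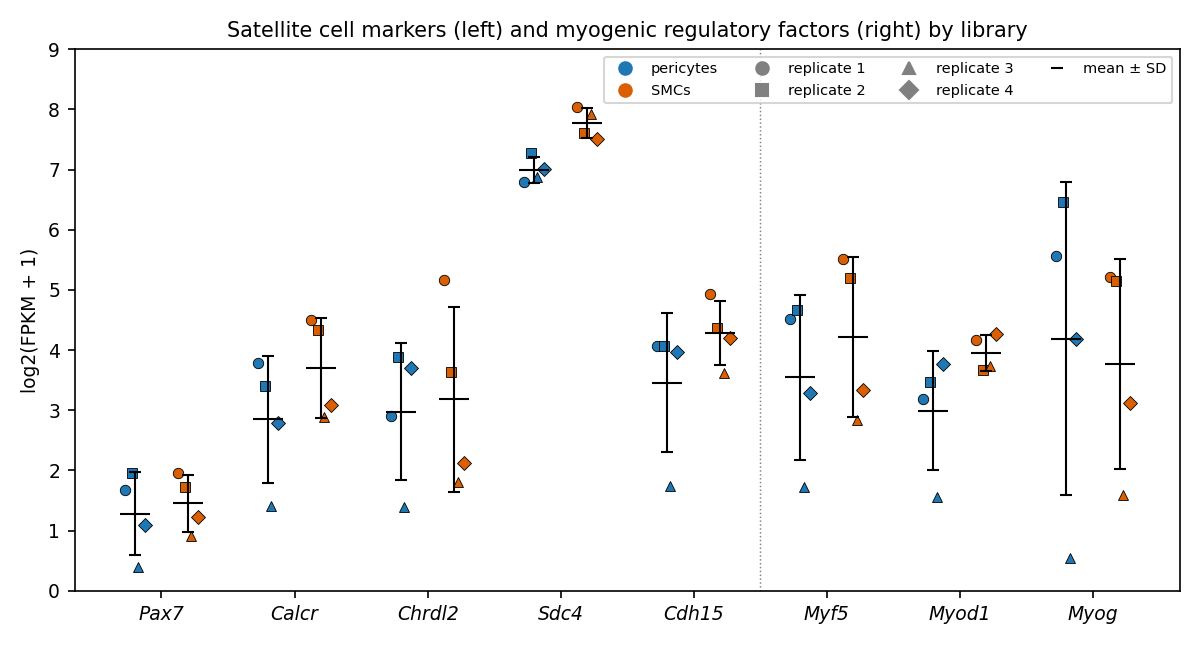
Level of each of the 8 genes, as log2(FPKM + 1) on the vertical axis, in 4 pericyte (blue) and 4 SMC (orange) libraries, with the marker shape giving the replicate number and black bars the mean and SD of each group. Sdc4 lies above the others and its groups do not overlap, whereas the other genes overlap and pericyte replicate 3 (triangle) is their lowest pericyte library.

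Pax7, the transcription factor that defines satellite cells, was the lowest of the 8 genes. In NCBI Build 37, which also holds for the other positions below unless stated, it spans 139292977 to 139389445 of chromosome 4 (minus strand). Pericyte replicates 1 to 4 had 2.19, 2.87, 0.319 and 1.14 FPKM, and SMC replicates 1 to 4 had 2.88, 2.30, 0.870 and 1.35 FPKM. The groups overlapped, and replicates 1 and 2 were above replicates 3 and 4 in both. The difference, pericytes minus SMCs on the log2(FPKM + 1) scale, was -0.17 (95% interval -1.07 to 0.73, limma adjusted p = 0.815, n = 4 per group), and it became 0.12 without pericyte replicate 3. Pax3, the related factor of embryonic muscle progenitors, stayed between 0.0542 and 0.677 FPKM over all 8 libraries.

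Calcr, the calcitonin receptor that marks quiescent satellite cells, spans 3635677 to 3714713 of chromosome 6 (minus strand). It had 12.8, 9.59, 1.64 and 5.89 FPKM in pericyte replicates 1 to 4. In SMC replicates 1 to 4 it had 21.7, 19.2, 6.40 and 7.51 FPKM. The SMC library was higher in each of the 4 same-numbered pairs, as it was for 5 of the 8 members (Calcr, Sdc4, Cdh15, Myf5 and Myod1) and for 29.7% of the 13612 genes averaging 1 FPKM or more, but the groups overlapped because SMC replicates 3 and 4 lay below pericyte replicates 1 and 2. The log2 difference was -0.86 (standard error 0.61, 95% interval -2.29 to 0.58, limma adjusted p = 0.422), and -0.38 without pericyte replicate 3.

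Chrdl2, a secreted protein of the chordin family that binds bone morphogenetic proteins, spans 107154914 to 107183238 of chromosome 7 (plus strand). Its values in pericyte replicates 1 to 4 were 6.46, 13.8, 1.63 and 12.1 FPKM. SMC replicates 1 to 4 had 34.7, 11.5, 2.51 and 3.35 FPKM. SMC replicate 1 was the highest library and the other SMC libraries lay within the pericyte range. The log2 difference of -0.21 (95% interval -2.26 to 1.84, limma adjusted p = 0.901) turned to 0.45 without SMC replicate 1 and to 0.32 without pericyte replicate 3, so its direction rests on single libraries.

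Cdh15 encodes M-cadherin, an adhesion protein between satellite cells and fibres, and spans 125371866 to 125391297 of chromosome 8 (plus strand). It had 15.8, 15.7, 2.32 and 14.6 FPKM in pericyte replicates 1 to 4, and 29.5, 19.6, 11.3 and 17.4 FPKM in SMC replicates 1 to 4. In pericytes 3 libraries were almost level and replicate 3 stood far below them. The log2 difference was -0.82 (95% interval -2.19 to 0.54, limma adjusted p = 0.416), and -0.25 without pericyte replicate 3. A gene model that overlaps Cdh15 on the same strand, Gm20388, shares 0 of its 3251 exonic bases.

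Sdc4 encodes syndecan-4, a heparan sulfate proteoglycan that satellite cells and many other cells carry on their surface, and spans 164249747 to 164269387 of chromosome 2 (minus strand). It had 109, 154, 117 and 128 FPKM in pericyte replicates 1 to 4. SMC replicates 1 to 4 had 262, 195, 243 and 182 FPKM. The lowest SMC value exceeded the highest pericyte value, and the ratio of the means was 1.74. Pericytes averaged 127 ± 19.5 FPKM against 221 ± 38.3 FPKM for SMCs (SD, n = 4 each), and the log2 difference was -0.79 (standard error 0.16, 95% interval -1.15 to -0.42, limma adjusted p = 0.0107). Leaving out any 1 library gave differences of -0.88 to -0.70. It passed in 14 of the 16 alternative settings run for each member, limma treat not among them. It did not pass with the replicate number as a block (log2 difference -0.79, limma adjusted p = 0.0545). Nor did it pass with both libraries numbered 3 left out (log2 difference -0.70, limma adjusted p = 0.0854).

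Sdc4 was the only 1 of the 8 genes called at an adjusted p below 0.05. Among all 27414 genes tested, 11.2% were called higher in SMCs and 10.6% higher in pericytes, 21.8% in all, and among the 13612 genes averaging 1 FPKM or more the shares were 19.5% and 19.7%, so a count of 1 in 8 is near the background. With a log2 difference beyond 2 also required, 0 of the 8 passed, against 2.66% of genes higher in SMCs and 3.24% higher in pericytes. The same holds for the separation of the groups, since 12.5% of all genes had groups that did not overlap and were higher in SMCs, and 12.1% the reverse. Endothelial markers moved with Sdc4, with 6 of 9 called higher in SMCs and sums of 510 to 1369 FPKM in SMCs against 109 to 192 FPKM in pericytes, as did the fibro-adipogenic markers above. Their part in the difference of Sdc4 was not tested. Sdc4 also differed from the rest in its order of libraries, with replicate 1 the lowest in pericytes and replicate 4 the lowest in SMCs.

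Of the 3 myogenic regulatory factors, Myf5 and Myog shared their order of high and low replicates, and Myod1 did not. Myf5, the first of them in activated cells, spans 106919964 to 106923190 of chromosome 10 (minus strand). Its values in pericyte replicates 1 to 4 were 22.0, 24.5, 2.29 and 8.78 FPKM. SMC replicates 1 to 4 had 44.6, 35.8, 6.12 and 9.10 FPKM. Replicates 1 and 2 were well above replicates 3 and 4 in both groups. The log2 difference was -0.67 (95% interval -2.72 to 1.38, limma adjusted p = 0.678), and -0.06 without pericyte replicate 3. Myf6, the fourth factor of this family and the nearest gene to Myf5, was low, between 0.0766 and 0.606 FPKM.

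Myod1 encodes MyoD, the factor of committed myoblasts, and spans 53631844 to 53634462 of chromosome 7 (plus strand). It had 8.10, 10.01, 1.94 and 12.7 FPKM in pericyte replicates 1 to 4. SMC replicates 1 to 4 had 16.9, 11.7, 12.4 and 18.2 FPKM, close together. Without pericyte replicate 3 the pericyte values lay between 8.10 and 12.7 FPKM, and pericyte replicate 4 was still above SMC replicates 2 and 3. The log2 difference was -0.96 (standard error 0.47, 95% interval -2.07 to 0.14, limma adjusted p = 0.221), the largest of the 8 genes in size with all libraries included. Without pericyte replicate 3 it was -0.49, smaller in size than for Myog (1.63) and Sdc4 (-0.75).

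Myog encodes myogenin, the factor of differentiating myoblasts, and spans 136186581 to 136189124 of chromosome 1 (plus strand). It varied most of the 8 genes. Pericyte replicates 1 to 4 had 46.2, 86.8, 0.456 and 17.1 FPKM, and SMC replicates 1 to 4 had 36.2, 34.3, 2.00 and 7.72 FPKM. Replicate 3 was the lowest library of each group and replicates 1 and 2 the highest. Myog was the 1 gene of the 8 with a higher mean in pericytes, at 37.6 ± 37.8 FPKM against 20.05 ± 17.7 FPKM (SD, n = 4 each), and it was higher in SMCs in 1 of 4 same-numbered pairs. The log2 difference of 0.42 (95% interval -2.94 to 3.77, limma adjusted p = 0.878) ranged from -0.34 to 1.63 when any 1 library was left out, so its direction is open in these data.

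**Figure D2:**
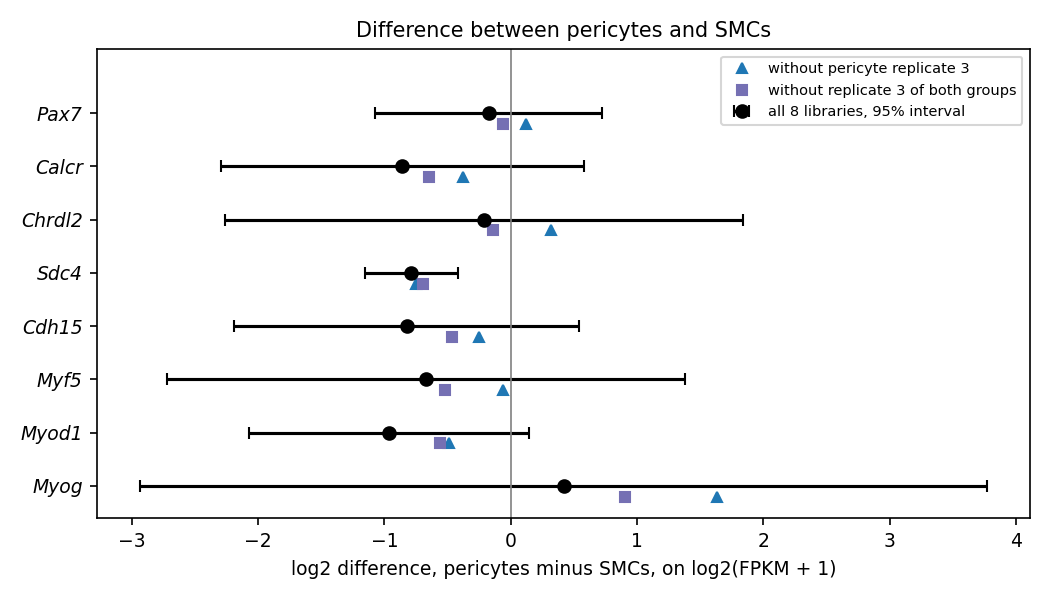
Log2 difference of each gene, pericytes minus SMCs on the log2(FPKM + 1) scale (horizontal axis), with the 95% interval from limma over all 8 libraries (black), and the same difference without pericyte replicate 3 (triangles) and without replicate 3 of both groups (squares). The interval of Sdc4, from -1.15 to -0.42, is the only one that leaves out 0.

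The DNA before the start sites of Myog and Cdh15 is shown because these are the members with E-boxes close to the start, and because both are known products of muscle differentiation or adhesion whose levels followed the library pattern described below. The stretches are the 250 bases upstream of the RefSeq start in GRCm38.p6, read 5′ to 3′ on the strand of the gene, with each E-box (CANNTG, which reads the same on both strands) in capitals. Myog is at chr1:134289754-134290003 on the plus strand, and Cdh15 at chr8:122848124-122848373 on the plus strand.
Myog: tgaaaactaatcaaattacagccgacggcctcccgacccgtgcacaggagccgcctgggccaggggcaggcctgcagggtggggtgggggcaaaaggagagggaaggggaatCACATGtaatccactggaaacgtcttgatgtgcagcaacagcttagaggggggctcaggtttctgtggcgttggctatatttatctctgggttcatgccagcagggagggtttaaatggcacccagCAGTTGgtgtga
Cdh15: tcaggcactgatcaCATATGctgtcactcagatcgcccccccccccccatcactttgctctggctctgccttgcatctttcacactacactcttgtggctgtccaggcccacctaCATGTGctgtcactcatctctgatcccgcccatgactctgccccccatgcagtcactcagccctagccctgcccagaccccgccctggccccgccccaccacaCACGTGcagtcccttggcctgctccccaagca
Myog held 2 E-boxes, the nearer starting 12 bases before the start site, and Cdh15 held 3, the nearest starting 32 bases before it. Of the 32841 promoters in the RefSeq table, 66.2% hold at least 1 E-box in a window of this length. RefSeq promoters matched 6 of the 8 members, with 7 start sites (2 for Calcr), and Myod1 and Chrdl2 were not matched. Pax7, Sdc4, Myf5 and 1 of the 2 start sites of Calcr held none in their windows, and the other start site of Calcr held 1. A match of letters describes the sequence and does not show a binding site.

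The order of the genes, on the per-length scale of log2(FPKM + 1), had fixed ends and an open middle. In pericytes it ran from Sdc4 (mean 6.99) through Myog (4.19), Myf5 (3.55), Cdh15 (3.46), Myod1 (2.99), Chrdl2 (2.97) and Calcr (2.85) to Pax7 (1.28). In SMCs it ran from Sdc4 (7.77) through Cdh15 (4.28), Myf5 (4.22), Myod1 (3.96), Myog (3.77), Calcr (3.70) and Chrdl2 (3.18) to Pax7 (1.45). Sdc4 was above, and Pax7 below, its neighbour in 4 of 4 libraries of each group. In between, Cdh15 was above Myod1 in 4 of 4 pericyte libraries, by 0.46 ± 0.34 (SD, n = 4). The other neighbours changed places between libraries, so their order is not resolved in either group.

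The proportions of the factors also changed between libraries. Per unit of Pax7 FPKM, Myog FPKM was 21.1, 30.3, 1.43 and 15.0 in pericyte replicates 1 to 4. In SMC replicates 1 to 4 the same ratio was 12.6, 14.9, 2.30 and 5.73. Replicate 3 thus had the lowest ratio of Myog to Pax7 in both groups. Myf5 FPKM over Myod1 FPKM was 2.71, 2.45, 1.18 and 0.694 in pericyte replicates 1 to 4, and 2.64, 3.06, 0.494 and 0.499 in SMC replicates 1 to 4. Myf5 was the more abundant transcript of the pair in replicates 1 and 2 of both groups, while in replicate 4 of both groups and SMC replicate 3 Myod1 was.

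The library pattern was shared by most members. Pericyte replicate 3 was the lowest pericyte library for 7 of the 8 genes, all but Sdc4, which 25.7% of the 13612 genes averaging 1 FPKM or more also show. Replicate 3 was the lowest library of both groups for 6 of the 8, all but Sdc4 and Myod1, against 10.05% of genes. Replicates 1 and 2 were above replicates 3 and 4 in both groups for Pax7, Calcr, Cdh15, Myf5 and Myog, 5 of the 8, against 16.4% of genes. The mean log2(FPKM + 1) over the 7 genes other than Sdc4 was 3.67, 3.98, 1.25 and 3.26 in pericyte replicates 1 to 4 and 4.49, 4.01, 2.48 and 3.05 in SMC replicates 1 to 4. These 7 genes were measured in the same libraries, so their agreement is not a set of independent observations.

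**Figure D3:**
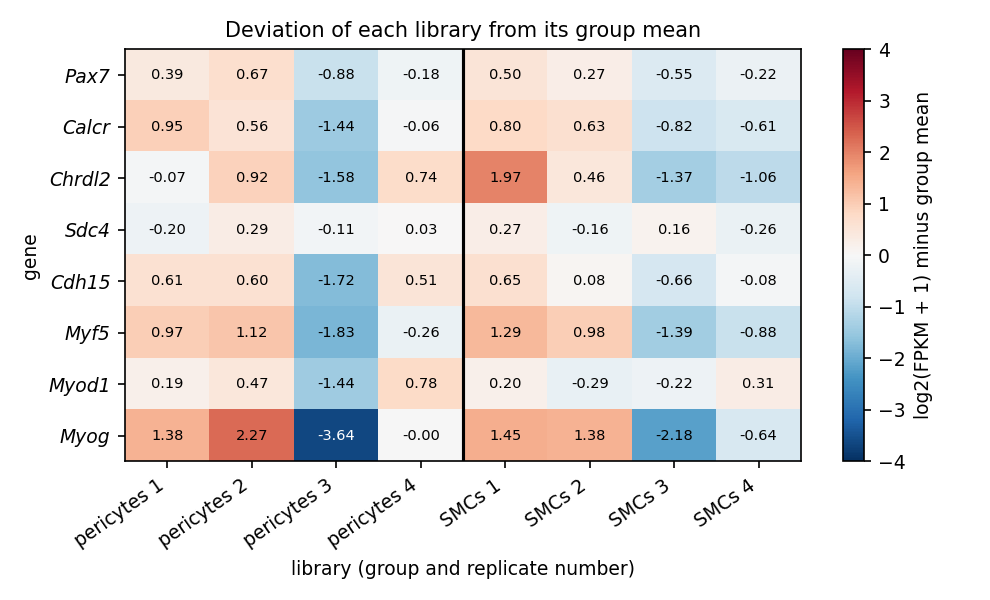
Deviation of log2(FPKM + 1) from the mean of the group for each gene (rows) in each library (columns, group and replicate number), with red above and blue below the mean and the value printed in each cell. The column of pericyte replicate 3 is blue in every row and reaches -3.64 for Myog, and the row of Sdc4 stays within 0.29 of its group means.

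The spread of the members differed between genes and groups. The pericyte SD of Myog on the log2(FPKM + 1) scale was 2.60, above that of 99.9% of the 2310 genes whose mean lay within 0.5 of its own, and its SMC SD was 1.75, above 99.4% of them. The pericyte SD of Myf5 was 1.37 and its SMC SD 1.33, above 98.2% and 98.3% of genes of like level. Chrdl2 had SDs of 1.14 in pericytes and 1.54 in SMCs. Myod1 had an SD of 0.99 in pericytes, above 92.6% of genes of like level, but of 0.30 in SMCs, above 39.6% of them. Sdc4 was the steadiest, with SDs of 0.21 in pericytes and 0.25 in SMCs. A range of at least 2 log2 units between pericyte libraries was found for 6 of the 8 genes, against 7.71% of the genes averaging 1 FPKM or more, and between SMC libraries for 3 of the 8 (Chrdl2, Myf5 and Myog), against 5.99%.

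Markers of other cell types were set beside this pattern. The summed fibre markers of pericyte replicate 3, at 57.1 FPKM, lay inside the range of the other pericyte libraries (52.1 to 72.7 FPKM). Of the 16 fibre markers, 4 were lowest in pericyte replicate 3 among the pericyte libraries, and Actn3 was one of them, at 6.50, 5.31, 0.870 and 8.89 FPKM in pericyte replicates 1 to 4. Schwann cell markers, 0 of 8 of which were called between the groups, moved the other way from the members in pericytes, with sums of 317, 289, 1349 and 1069 FPKM in replicates 1 to 4. In SMC replicates 1 to 4 they were 826, 662, 958 and 968 FPKM. Mural marker sums were 757, 1919, 614 and 1775 FPKM in pericyte replicates 1 to 4 and 1826, 2100, 3493 and 5819 FPKM in SMC replicates 1 to 4. B cell marker sums were 1338, 1979, 894 and 795 FPKM in pericyte replicates 1 to 4, and 29.9, 30.9, 9.60 and 15.4 FPKM in SMC replicates 1 to 4, higher in replicates 1 and 2 of both groups. Fibro-adipogenic sums without Dcn were 808, 918, 594 and 629 FPKM in pericyte replicates 1 to 4, and 5485, 4893, 5794 and 6308 FPKM in SMC replicates 1 to 4. Within that list Dpt, Lum, Pi16 and Cd34 had the order of most members, with replicates 1 and 2 above 3 and 4 and replicate 3 the lowest in both groups. The other markers of the list did not, and Col1a1 was higher in SMC replicates 3 and 4 (1702 and 1478 FPKM) than in SMC replicates 1 and 2 (525 and 580 FPKM). Dpt had 25.1, 40.1, 5.37 and 20.1 FPKM in pericyte replicates 1 to 4 and 309, 233, 117 and 120 FPKM in SMC replicates 1 to 4. Endothelial sums were 157, 127, 109 and 192 FPKM in pericyte replicates 1 to 4, lowest in replicate 3, and 510, 707, 1064 and 1369 FPKM in SMC replicates 1 to 4, where replicate 3 was not the lowest. The part of these cell types in the spread of the members was not tested.

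The genes whose pattern over the 8 libraries came nearest to a member were found by the mean absolute difference of log2(FPKM + 1), each gene centred on its own mean, among 13612 genes. Nearest to Myog were Actc1, the cardiac actin that immature muscle also makes (difference 0.50), Tmem8c, which encodes the fusion protein myomaker (0.60), and Nppc, the precursor of C-type natriuretic peptide (0.71). Tmem8c had 11.8, 18.0, 0.283 and 5.58 FPKM in pericyte replicates 1 to 4 and 8.38, 7.15, 1.05 and 1.45 FPKM in SMC replicates 1 to 4. Actc1 had 9.02, 13.7 and 5.28 FPKM in pericyte replicates 1, 2 and 4, was listed at 0 in pericyte replicate 3, and had 7.81, 7.94, 0.195 and 2.15 FPKM in SMC replicates 1 to 4. Both followed Myog in being highest in pericyte replicate 2 and lowest in replicate 3 of each group.

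Nearest to Cdh15 were 9430076C15Rik (difference 0.20), Rapsn, which encodes the protein that clusters acetylcholine receptors at the neuromuscular junction (0.23), and Edn3, endothelin 3 (0.24). Nearest to Calcr were 9430076C15Rik (0.20), Chrnb1, the beta subunit of the muscle acetylcholine receptor (0.22), and Edn3 (0.23). Rapsn had 15.6, 22.9, 3.66 and 14.03 FPKM in pericyte replicates 1 to 4, and Chrnb1 had 34.97, 18.6, 7.41 and 15.6 FPKM. Myod1 lay nearest to Actn3, the alpha-actinin of fast fibres (0.19), Hey1, a Notch target gene (0.23), and Csdc2 (0.23). Myf5 lay nearest to Agtr2, an angiotensin receptor (0.32), Tac4, a tachykinin precursor (0.33), and Nppc (0.35). Chrdl2 lay nearest to Dnajc25 (0.42), 2010204K13Rik (0.44) and Mgl2 (0.45). The differences of the nearest genes were smallest for Myod1, Calcr and Cdh15 and largest for Myog. Among the members themselves likeness ran widely. By rank it ran from Calcr, 5 of 13611 genes by nearness to Myf5 (0.36), to Myog, 12939 by nearness to Sdc4 (1.71). No nearest genes are listed for Pax7 and Sdc4, which ranged by less than 2 log2 units over the libraries.

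**Figure D4:**
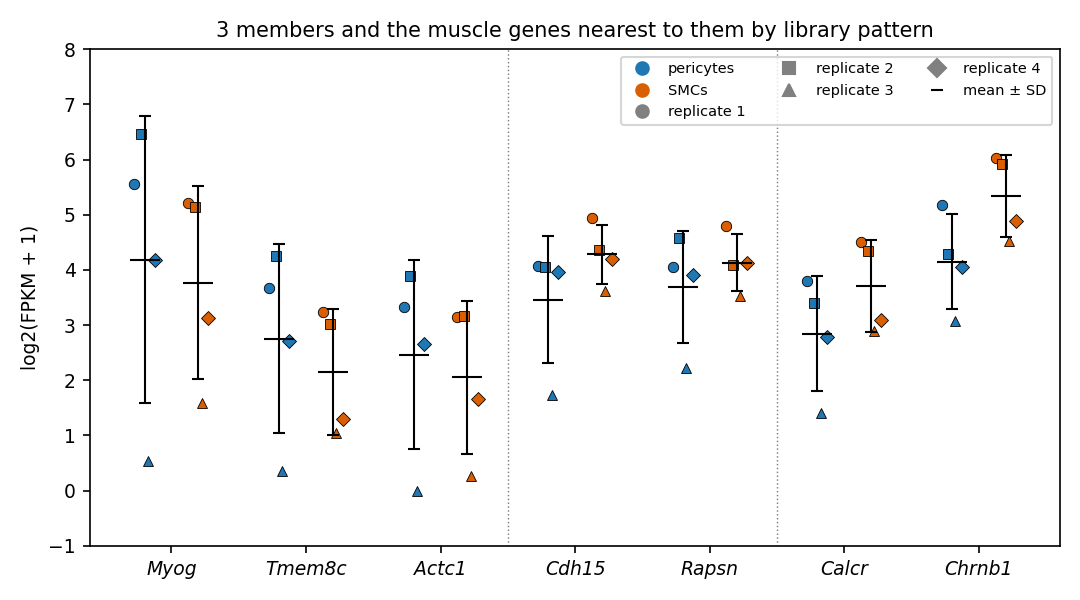
Level, as log2(FPKM + 1) on the vertical axis, of Myog, Cdh15 and Calcr, each followed by neighbours with a known role in muscle (chosen from the nearest genes after their values were seen), in pericyte (blue) and SMC (orange) libraries, with replicate numbers as marker shapes and the mean ± SD in black. In each gene shown, pericyte replicate 3 is the lowest library of its group, down to a listed 0 for Actc1.

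A wider list of satellite cell and myoblast genes was compared in the same test. Of 37 genes, 25 did not pass, 1 had higher values in pericytes and 11 in SMCs, against the 10.6% and 11.2% of all genes, and the list's median log2 difference was -0.69 against 0.02 for all genes tested. The genes higher in SMCs included Cd34, a surface protein of progenitor and endothelial cells, with 477 ± 125 FPKM in SMCs but 64.3 ± 29.8 FPKM in pericytes (SD, n = 4 each) (log2 difference -2.98, limma adjusted p = 0.00202). Vcam1, an adhesion protein of satellite cells that endothelium also makes, averaged 210 ± 44.3 FPKM in SMCs but 31.9 ± 15.7 FPKM in pericytes (SD, n = 4 each) (log2 difference -2.83, limma adjusted p = 0.00362). The Hedgehog co-receptor gene Boc (log2 difference -2.40, limma adjusted p = 0.00324) and Mstn, the gene of the growth inhibitor myostatin (-2.04, limma adjusted p = 0.00597), were also higher in SMCs. Cxcr4, a chemokine receptor that lymphocytes also carry, was the 1 gene higher in pericytes, at 30.7 ± 12.4 FPKM against 4.86 ± 3.44 FPKM (SD, n = 4 each) (log2 difference 2.57, limma adjusted p = 0.00998). The endothelial, fibro-adipogenic and lymphocyte markers given above moved in the same directions as these genes, Cd34 is itself one of the fibro-adipogenic markers, and their part was not tested. Leaving out any 1 library gave 7 to 11 genes with higher values in SMCs and 1 with higher values in pericytes. With both libraries numbered 3 left out, 7 genes passed with higher values in SMCs and 0 with higher values in pericytes.

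Several further genes of the list, named after their values were seen, did not pass. Fgfr4, a growth factor receptor of myoblasts, had 4.61 to 22.4 FPKM in pericytes and 9.79 to 23.0 FPKM in SMCs (limma adjusted p = 0.619). Megf10, a receptor of satellite cells, had 0.750 to 3.46 FPKM in pericytes and 1.93 to 4.55 FPKM in SMCs (limma adjusted p = 0.495). Msc, the factor musculin, had 1.58 to 13.1 FPKM in pericytes and 7.62 to 43.6 FPKM in SMCs (limma adjusted p = 0.217). Chrnd and Chrng, subunits of the muscle acetylcholine receptor, stayed under 1 FPKM in every library, whereas Chrna1 had 0.423 to 7.31 FPKM in pericytes and 2.26 to 9.71 FPKM in SMCs (limma adjusted p = 0.697).

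Partners and antagonists of the myogenic factors were measured next. Of 27 genes, 16 did not pass, 3 had higher values in pericytes and 8 in SMCs, with a median log2 difference of -0.27. Among all genes tested 10.6% were called on the pericyte side, so 3 of 27 is near the background, and 11.2% on the SMC side. Known antagonists fell on both sides of the threshold, with Id2 (limma adjusted p = 0.522), Id4 (0.643) and the Notch target Hey1 (0.0596) not passing. Id3 (log2 difference -1.82, limma adjusted p = 0.00969), Twist1 (-1.55, limma adjusted p = 0.00484) and Hes1 (-1.24, limma adjusted p = 0.0314) passed, each with higher values in SMCs. Id1, an inhibitor of basic helix-loop-helix factors, averaged 176 ± 54.1 FPKM in SMCs but 41.6 ± 17.7 FPKM in pericytes (SD, n = 4 each) (log2 difference -2.11, limma adjusted p = 0.00651). Snai2 (-2.10, limma adjusted p = 0.00341), Twist2 (-2.08, limma adjusted p = 0.00954) and Snai1 (-1.92, limma adjusted p = 0.00524), repressors known from mesenchymal cells, were also higher in SMCs. The E protein gene Tcf4 was higher in SMCs, at 136 ± 9.80 FPKM against 51.1 ± 12.8 FPKM (SD, n = 4 each) (limma adjusted p = 0.00124). The E protein genes Tcf3 and Tcf12 did not pass. Tcf3 averaged 32.2 ± 15.4 FPKM in pericytes and 16.7 ± 5.92 FPKM in SMCs (SD, n = 4 each) (log2 difference 0.83, limma adjusted p = 0.248). Tcf12 averaged 21.6 FPKM in pericytes and 23.3 FPKM in SMCs (log2 difference -0.12, limma adjusted p = 0.745). Higher in pericytes were Mef2d (log2 difference 1.30, limma adjusted p = 7.9e-04) and Mef2c (1.24, limma adjusted p = 0.00246), factors that act with MyoD in muscle and are also made in lymphocytes, and Ep300, a histone acetyltransferase (0.98, limma adjusted p = 0.0232). Fibro-adipogenic and endothelial markers moved with the genes higher in SMCs, and lymphocyte markers with those higher in pericytes, and their part was not tested.

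Relatives of Sdc4, Calcr, Chrdl2 and Cdh15 were read against the same shares, 10.6% of all genes called on the pericyte side and 11.2% on the SMC side, or 19.7% and 19.5% of genes averaging 1 FPKM or more. Among 10 syndecans and glypicans, 6 had higher values in SMCs and 0 in pericytes, with Gpc3 (log2 difference -3.63, limma adjusted p = 5.4e-04) and Sdc2 (-3.05, limma adjusted p = 8.1e-04) far ahead of Sdc4 (-0.79). With both libraries numbered 3 left out, 2 of the 10 passed. Among the 10 genes of calcitonin receptors, their accessory proteins and ligands, 2 were higher in pericytes and 3 in SMCs. Ramp3, an accessory protein, averaged 160 ± 38.5 FPKM in pericytes but 10.6 ± 2.35 FPKM in SMCs (SD, n = 4 each) (log2 difference 3.79, limma adjusted p = 4.3e-05), while Ramp2 (-2.67, limma adjusted p = 9.7e-04) and the adrenomedullin gene Adm (-2.63, limma adjusted p = 0.00187) were higher in SMCs. Among 6 genes of the chordin family, 4 were higher in SMCs, led by Bmper (-3.28, limma adjusted p = 0.00214) and Chrdl1 (-2.83, limma adjusted p = 7.1e-04), and Chrdl2 was not among them. Among 15 cadherins and catenins, 7 had higher values in SMCs and 0 in pericytes, led by Cdh11 (-3.28, limma adjusted p = 6.2e-04). Leaving out any 1 library gave from 4 (without SMC replicate 3) to 8 (without SMC replicate 1), and 4 passed with both libraries numbered 3 left out. Cdh15 did not pass. The fibro-adipogenic (8 of 9) and endothelial (6 of 9) markers called higher in SMCs moved the same way as the relatives higher in SMCs. Cdh5 is itself one of the endothelial markers. The T cell (6 of 7) and B cell (6 of 6) markers called higher in pericytes moved the same way as Ramp3. The part of these cell types was not tested.

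**Figure D5:**
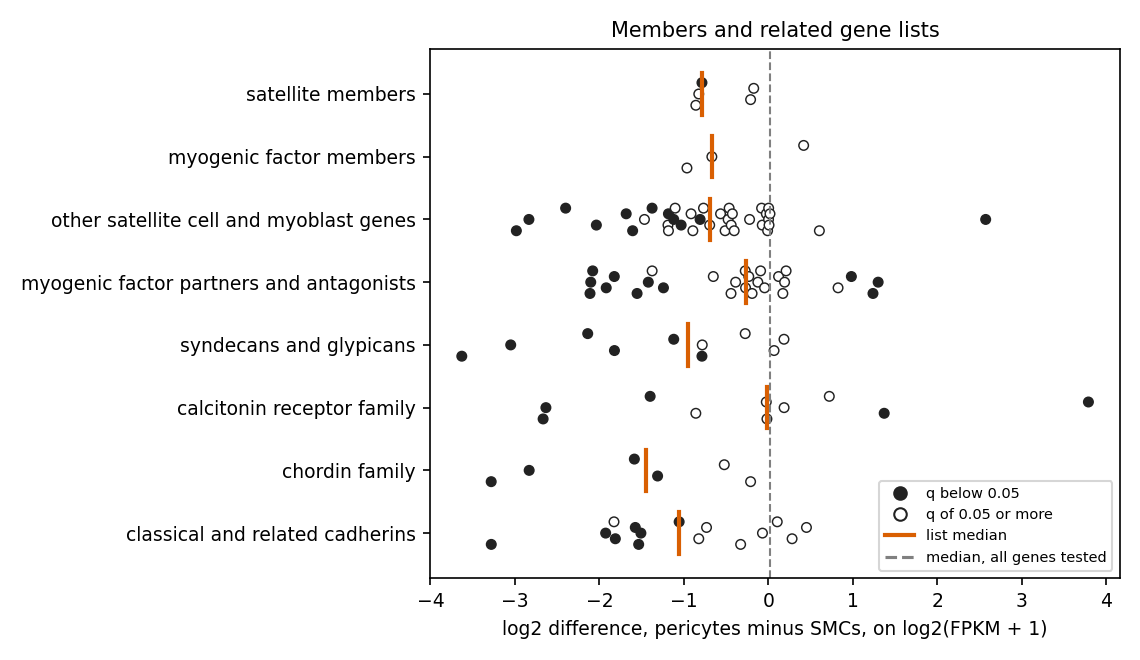
Log2 difference, pericytes minus SMCs on the log2(FPKM + 1) scale (horizontal axis), of each gene in the members and in 6 related lists, filled where the adjusted p is below 0.05 and open otherwise, with orange bars at list medians and a dashed line at the median of all genes tested (0.02). Among the members 1 filled point is seen, Sdc4 (also a point of the syndecan list), and the wider list of satellite cell genes has 11 filled points on the SMC side and 1 on the pericyte side.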

How the data were processed

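RNA from 4 pericyte and 4 SMC libraries of mouse hindlimb muscle was converted to cDNA with a low-input SMART-Seq kit, made into Nextera XT libraries and sequenced. The authors checked reads with FastQC, aligned them to NCBI Build 37 with Bowtie2 and TopHat at default parameters with an Ensembl annotation, and deposited FPKM values that were neither log transformed nor filtered. The program that computed FPKM and the strand setting are not given in the sources used here. Values were analysed as log2(FPKM + 1), which understates fold changes of low genes, with limma 3.58.1 in R 4.3.3 (lmFit, eBayes) and Benjamini-Hochberg adjustment over the 27414 genes above 0 FPKM in at least 1 library. The adjusted p threshold was 0.05. On simulated data, 192 of 200 genes shifted by 4 log2 units and 0 of the other genes among 27414 passed. Passing there required a log2 difference beyond 2 as well as the adjusted p. The simulated shift was larger than the difference of any member, so these rates do not carry over to the members. Replicates are pools of sorts, and p-values measure the spread between these pools. Gene positions came from GENCODE M1 (NCBI Build 37) and promoter sequences from RefSeq (GRCm38.p6).

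The members and gene lists were chosen with earlier results of these data known. Named genes were the 8 members, list genes passing the test (at most 4 per direction and list, by size of difference) and their relatives, markers of other cell types, and the 3 nearest genes to each member ranging by at least 2 log2 units. Tcf3, Tcf4, Tcf12, Id2, Id3, Id4, Hes1, Twist1, Fgfr4, Megf10, Msc, Pax3, Myf6, Chrna1, Chrnd and Chrng were named from the lists after their values were seen. For symbols with more than 1 row, the row with the highest mean was used. The alternatives tried were leaving out each library, blocking on the replicate number, a covariate for replicates 1 and 2 against 3 and 4, testing only genes that reach 1 FPKM in 4 libraries, TPM or quantile scaling, a 0.1 pseudocount, limma treat and an eBayes trend. Leaving out both libraries numbered 3 was chosen after seeing the data. Figures were drawn in Python 3.11.15 with matplotlib 3.10.9.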

Additional observations from a re-analysis of the deposited data

Results flagged for a closer look

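Of 74 groups of 4 libraries checked (37 named genes in pericytes and in SMCs), 3 held a library far from the other 3, and chance gives about 1 in 20. For Cdh15, pericyte replicate 3 had 2.32 FPKM and the other pericyte libraries 14.6 to 15.8 FPKM, so that its gap made up 0.956 of the whole range of log2 values (critical value 0.829). For Ep300, pericyte replicate 2 had 2.63 FPKM and the others 5.63 to 6.31 FPKM (0.859 of the range). For Ramp2, SMC replicate 1 had 217 FPKM and the others 150 to 160 FPKM (0.833 of the range).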

How the results depend on the processing

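The 7 members other than Sdc4 passed the test in none of the 16 settings run for each (8 of them leaving out 1 library), and Sdc4 passed in 14 of 16. Limma treat is not among these 16, since it was used only for the number of all genes with a log2 difference beyond 2. With the replicate number as a block, the adjusted p of Sdc4 was 0.0545 at a log2 difference of -0.79, and 0 members passed. With both libraries numbered 3 left out, its log2 difference was -0.70, 0 members passed, and 3689 of all genes were called against 5977; fewer libraries entered this fit. Deviations from the group means, compared across 13612 genes, correlated by 0.0794 to 0.474 within the 4 same-numbered pairs (mean 0.327), with 3 of the 4 above 0.1, and 5 of 8 libraries correlated best with their own number. Since the labels tie no number to a shared animal or day and 1 pair lay below 0.1, the numbers were not taken as pairs in the reported test, although most pairs did deviate together. Under the block the adjusted p of the other 7 members ran from 0.0578 (Calcr) to 0.869 (Chrdl2), and the standard error of Myf5 was 0.21 in place of 0.87. With each library left out, the log2 difference ranged from -0.67 to 0.45 for Chrdl2, from -0.34 to 1.63 for Myog and from -0.40 to 0.12 for Pax7, crossing 0 in each case, whereas those of Calcr (-1.17 to -0.38), Cdh15 (-1.04 to -0.25), Myf5 (-1.13 to -0.06) and Myod1 (-1.22 to -0.49) stayed below 0. Chrdl2 reached 0.32 without pericyte replicate 3 and 0.45 without SMC replicate 1, Myog -0.04 and -0.34 without pericyte replicates 1 and 2 and -0.31 without SMC replicate 3. The cause was not tested. The number of called genes with a log2 difference beyond 2 was 1616, 2749 with a pseudocount of 0.1 and 368 with limma treat. Over the lists, 43 genes were called, and 29 to 49 in other settings.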
